A study of Homo sapiens with 36 samples.

Results

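The 9 genes described here encode transcription factors of the myeloid lineage, SPI1, CEBPA, CEBPB, CEBPD, CEBPE, IRF8, KLF4, GFI1 and MYB. They were chosen by name, with earlier results of these data known. Their transcripts were summed to 9 of the 35460 genes that the deposited tables give. RNA was measured by bulk sequencing in the human cell lines MONO-MAC-6 and MOLM-13, grown from acute myeloid leukaemia (AML) and labelled wild type. Each line was treated with the solvent DMSO or with A9, and RNA was taken at 72 h. A9 is a PROTAC, a compound that recruits a ubiquitin ligase to its target proteins so that they are degraded. The design text names IKK2 and NR4A1 as its targets, while the title names IKK1 in place of IKK2. MONO-MAC-6 received A9 at 0.25 µM and MOLM-13 at 0.125 µM, so line and dose changed together in every comparison of the A9 response between lines. Each group held 9 libraries, which were averaged by the first number of their label into 3 samples per group (12 samples in all). Nothing in the labels says whether those samples were separate cultures, so the p-values measure the spread between these samples, which may be technical. Each line is a single model of the disease.

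SPI1 encodes PU.1, an ETS-family factor needed for both monocytes and granulocytes. The C/EBP proteins bind DNA as dimers: CEBPA drives the early step into the granulocyte and monocyte lineage, CEBPB and CEBPD act later and in inflammatory responses, and CEBPE serves terminal granulocyte maturation. IRF8 and KLF4 favour the monocyte branch, GFI1 is a repressor that favours the granulocyte branch, and MYB keeps progenitors immature and proliferating. In AML this programme is held at an immature stage, and CEBPA and SPI1 are among the factors whose activity is often impaired.

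Values are TPM (transcript abundance scaled to a fixed total per library), which are corrected for transcript length, so levels can be compared between genes. TPM carry no read counts, so counting error cannot be stated and the depth behind a value is unknown. Fold changes were fitted with limma on log2(TPM + 1), a scale that understates changes of low genes, and a gene was called when its Benjamini-Hochberg adjusted p over all genes tested was under 0.05. In MONO-MAC-6, DMSO sample 1 stood apart from the other 5 samples, at 63.3 against -23.3 to 2.73 on a first principal component that held 70.2% of the variance. In MOLM-13 the first component (67.6%) ran from DMSO sample 1 at -31.2 to A9 sample 3 at 38 and did not follow treatment. Over all genes, the median log2 change was 0.16 with A9 in MONO-MAC-6 and 0.12 between the DMSO groups. Median-ratio scaling, which brings such medians close to 0 by construction, left 0.0070 and -0.0047. Without MONO-MAC-6 DMSO sample 1 the unscaled medians were 0.027 and 0.26. Markers of other lineages were checked as summed levels. The summed level of 5 T cell markers (CD3D, CD3E, CD3G, CD2 and CD7) ran from 0.189 to 0.701 TPM over all samples, and 2 of them were at 0 in every group. That of 10 myeloid markers ran from 289 to 581 TPM in MOLM-13 and from 3203 to 8104 TPM in MONO-MAC-6, with LYZ the highest. LYZ made up much of these sums, with DMSO means of 133 TPM in MOLM-13 and 3413 TPM in MONO-MAC-6. The list did not move as one. Of 9 myeloid markers tested between the DMSO groups, 4 were called higher in MONO-MAC-6 and 4 lower, beside 48.8% of all genes called. B cell markers summed to 9.84 to 11.1 TPM with DMSO and 6.31 to 7.14 TPM with A9 in MONO-MAC-6, and erythroid markers to 6.57 to 9.88 and 3.22 to 5.41 TPM. These sums moved with treatment in that line, and their part in the results was not tested. In bulk RNA, fewer expressing cells and less RNA per cell cannot be told apart.

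With A9, KLF4 and SPI1 rose in MONO-MAC-6, KLF4 to 2.14 and SPI1 to 1.3 times their DMSO means. These calls were fragile, and held in 2 (KLF4) and 1 (SPI1) of 6 fits that left out 1 sample. With median-ratio scaling the SPI1 call was lost and the KLF4 call held. In MOLM-13 none of the 8 tested factors passed, and the highest fitted change among them was that of CEBPD, at 1.39 times its DMSO mean. CEBPE had 2.89 times its DMSO mean there, but at 0.854 TPM with A9 it was under the 1 TPM needed for testing. The A9 effect on KLF4 differed between the lines, which also differed in dose. That call held in 2 of 12 fits that left out 1 sample. Without A9, CEBPD, SPI1, CEBPB and CEBPA were higher in MONO-MAC-6 than in MOLM-13, CEBPD by 3.06 times. In that comparison 48.8% of all genes were called, and the CEBPB and CEBPA calls were lost with median-ratio scaling.

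**Figure D1:**
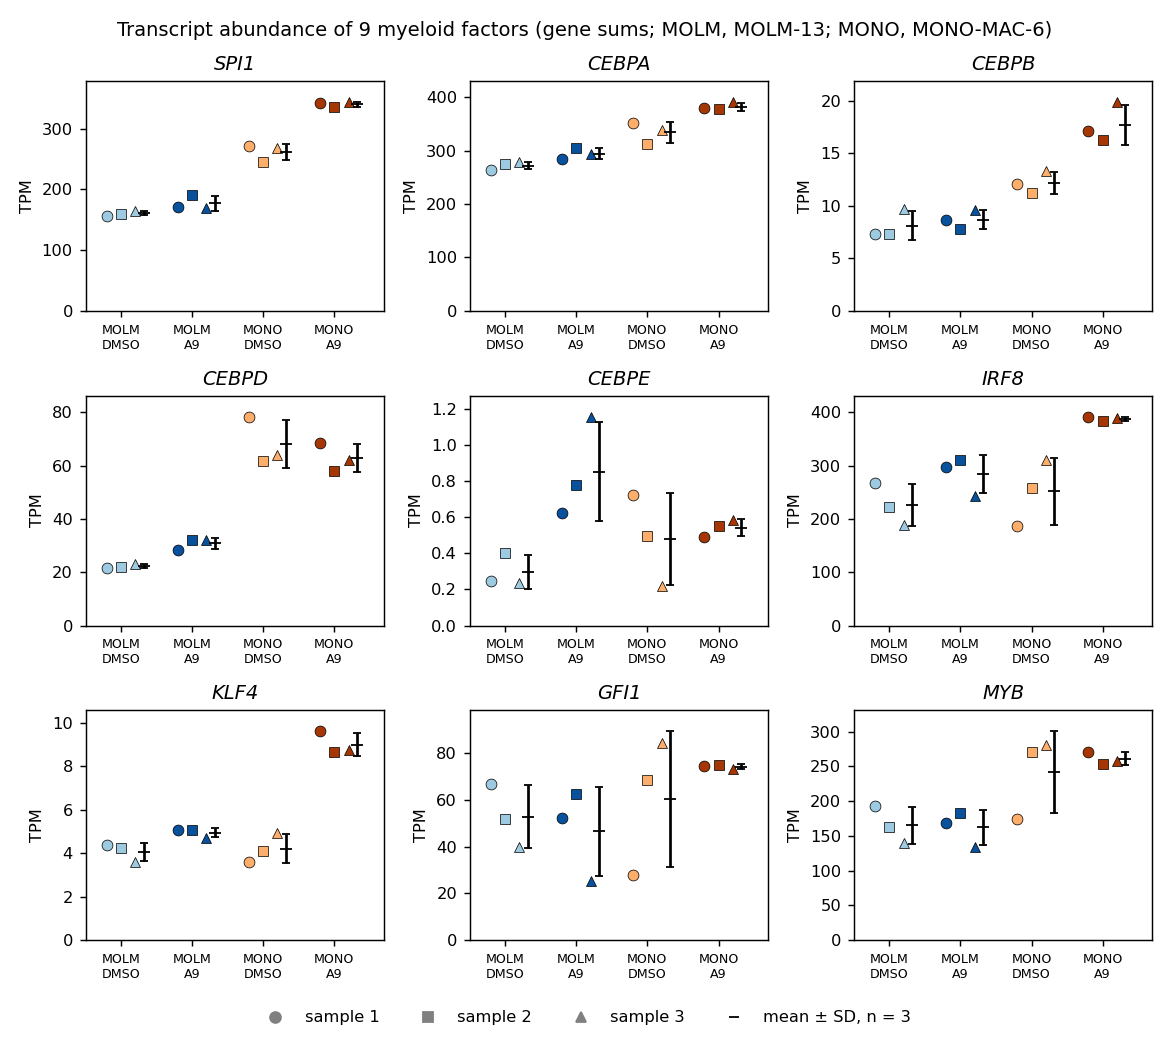
Transcript abundance (TPM, linear axes from 0) of the 9 factors in each of the 3 samples of every group, with the mean and SD (n = 3) as a black bar. In MONO-MAC-6 the A9 samples of KLF4 (8.64 to 9.62 TPM) and SPI1 (336 to 344 TPM) all lie above the DMSO samples, and CEBPE stays at or below 1.16 TPM throughout.

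CEBPA, IRF8, MYB and SPI1 were the abundant factors in every group, followed by GFI1 and CEBPD, then CEBPB, KLF4 and CEBPE. In MOLM-13 with DMSO the means were 272 TPM for CEBPA, 226 for IRF8, 165 for MYB and 161 for SPI1, and the sample ranges of neighbours in that order overlapped. CEBPA ranked 396th and SPI1 693rd among all genes there, against 11400 genes at 1 TPM or more. GFI1 (52.7 TPM), CEBPD (22.3 TPM), CEBPB (8.1 TPM) and KLF4 (4.06 TPM) followed with ranges that did not overlap. With A9 in MONO-MAC-6 the order was led by IRF8, at 388 TPM and rank 283, beside CEBPA at 382 TPM, and their ranges overlapped. CEBPE means were 0.296 TPM (DMSO) and 0.854 TPM (A9) in MOLM-13, and 0.48 TPM (DMSO) and 0.544 TPM (A9) in the other line. These were under the minimum of 1 TPM in a group, so CEBPE was not tested.

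The remaining 8 factors passed the filter. In MOLM-13, 0 of the 8 were called with A9, where 0.121% of 11596 genes were, and CEBPD alone (1 factor) was under 0.05 before adjustment. All 3 A9 samples lay above all 3 DMSO samples for 4 factors (SPI1, CEBPA, CEBPD and KLF4) and below for 0, where 15.0% of genes had groups that did not overlap in either direction. In MONO-MAC-6, 2 of the 8 were called, both higher with A9, against 3.36% of 12869 genes called in either direction. There 5 factors (SPI1, CEBPA, CEBPB, IRF8 and KLF4) had all A9 samples above all DMSO samples and 0 below, against 37.9% of genes without overlap. The median log2 fold change of the 8 factors was 0.12 in MOLM-13, beside -0.046 over all genes, and 0.41 in MONO-MAC-6, beside 0.16. Without MONO-MAC-6 DMSO sample 1, 5 factors and 3204 genes were called in that line. Leaving out any other sample of the line gave 0 or 1 called factor and 59 to 210 genes.

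**Figure D2:**
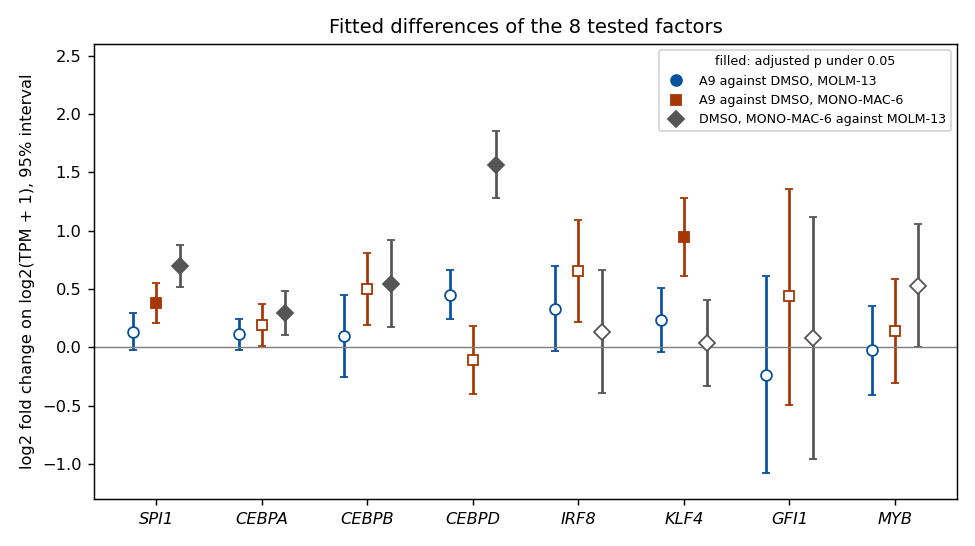
Fitted log2 fold change on log2(TPM + 1) with its 95% interval for the 8 tested factors: A9 against DMSO in MOLM-13 (circles) and MONO-MAC-6 (squares), and MONO-MAC-6 against MOLM-13 with DMSO (diamonds). Filled symbols have a limma adjusted p under 0.05: SPI1 and KLF4 among the squares, and SPI1, CEBPA, CEBPB and CEBPD among the diamonds.

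SPI1 (ENSG00000066336, GRCh38 chromosome 11, 47354860 to 47378576, minus strand) had 157, 160 and 165 TPM in the DMSO samples of MOLM-13 and 171, 191 and 169 TPM with A9. The groups did not overlap, but the log2 fold change of 0.14 (SE 0.066) did not pass the test (limma adjusted p 0.729). The MONO-MAC-6 samples had 271, 246 and 268 TPM with DMSO and 342, 336 and 344 TPM with A9. All A9 samples were higher than all DMSO samples, and the log2 fold change was 0.38 (SE 0.072, limma adjusted p 0.0451). This call was marginal. It was lost without any 1 of the samples DMSO 2 and 3 and A9 1 to 3, at limma adjusted p-values of 0.092 to 0.258, and it strengthened to 0.000765 without DMSO sample 1. With median-ratio scaling the change was 0.20 (limma adjusted p 0.469). SPI1 RNA was spread over 4 coding transcripts. The main one, of 1403 bases, held 67.5% ± 2.53 (SD, n = 3) of SPI1 TPM with DMSO in MOLM-13 and 67.7% ± 1.3 with A9. In MONO-MAC-6 its share was 60.8% ± 1.79 and 57.7% ± 0.879 (SD, n = 3).

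CEBPA (ENSG00000245848, chromosome 19, 33299934 to 33302564, minus strand) was the most abundant C/EBP gene in every group. It had 264, 274 and 278 TPM with DMSO and 284, 305 and 293 TPM with A9 in MOLM-13. Its level in MONO-MAC-6 was 351, 313 and 339 TPM with DMSO and 379, 377 and 391 TPM with A9. The A9 samples were above the DMSO samples in both lines, by 8.16% and 14.4% on the means, and neither change passed the test (limma adjusted p 0.727 and 0.218). The MONO-MAC-6 change was 0.20 on the log2 scale, and 0.016 with scaling. Without DMSO sample 1 it was 0.23 and passed (limma adjusted p 0.00876), beside a median of 0.027 over all genes, and without any other sample it was 0.15 to 0.21 and did not pass.

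CEBPB (ENSG00000172216, chromosome 20, 50190734 to 50192689, plus strand) was low, with 7.29, 7.32 and 9.68 TPM with DMSO and 8.7, 7.8 and 9.61 TPM with A9 in MOLM-13, groups that overlapped. Levels in MONO-MAC-6 were 12.1, 11.2 and 13.3 TPM with DMSO and 17.1, 16.3 and 19.9 TPM with A9, groups that did not. The MONO-MAC-6 log2 fold change of 0.50 (SE 0.13) missed the threshold (limma adjusted p 0.104), and passed it without DMSO sample 1 (limma adjusted p 0.0111).

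CEBPD (ENSG00000221869, chromosome 8, 47736909 to 47739086, minus strand) took opposite signs in the lines. In MOLM-13 it had 21.7, 21.9 and 23.2 TPM with DMSO and 28.4, 32 and 32.1 TPM with A9. The groups stood clear of each other, with a log2 fold change of 0.45 (SE 0.087, unadjusted p 0.00158, limma adjusted p 0.159). For MONO-MAC-6 the values were 78.4, 61.7 and 63.9 TPM with DMSO and 68.3, 58 and 62.2 TPM with A9, which overlapped (log2 fold change -0.11, limma adjusted p 0.59). The difference of the effect between the lines was -0.56 (SE 0.14) and missed the threshold, with a limma adjusted p of 0.0704.

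Within the C/EBP family, counted as the summed TPM of CEBPA, CEBPB, CEBPD, CEBPE and CEBPG, CEBPA held 79.8% ± 1.31 (SD, n = 3) with DMSO and 78.9% ± 1.26 with A9 in MOLM-13. Its share in MONO-MAC-6 was 74.3% ± 1.29 and 76.2% ± 0.868 (SD, n = 3). CEBPD held 6.53% ± 0.209 and 8.27% ± 0.498 in MOLM-13 and 15.1% ± 1.55 and 12.5% ± 0.924 in MONO-MAC-6 (SD, n = 3). CEBPG, a partner with little activating capacity of its own, held 11.2% and 10.3% in MOLM-13 and 7.8% and 7.64% in MONO-MAC-6. The C/EBP pool was thus mostly CEBPA RNA in all 4 groups, with CEBPD as the next myeloid member in both lines.

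IRF8 (ENSG00000140968, chromosome 16, 85898803 to 85922609, plus strand) had 267, 223 and 189 TPM with DMSO and 298, 311 and 243 TPM with A9 in MOLM-13, and the groups overlapped. MONO-MAC-6 cells had 186, 258 and 311 TPM with DMSO and 391, 383 and 390 TPM with A9. All A9 samples were higher there and lay within a narrow band, while the DMSO samples were widely spread, with sample 1 lowest. The log2 fold change was 0.65 (SE 0.18) and did not pass the test (limma adjusted p 0.125). Without DMSO sample 1 it was 0.45 and passed (limma adjusted p 0.00485). With each sample's trend on transcript length removed, an alternative chosen after seeing the data, IRF8 passed in both lines, at 0.40 (limma adjusted p 0.0363) in MOLM-13 and 0.47 (limma adjusted p 0.0207) in MONO-MAC-6.

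Part of the IRF8 spread lay in a short coding transcript of 531 bases, ENST00000564617, for which the tables list uneven values. It held 20.8%, 13.8% and 0.00682% of IRF8 TPM in the DMSO samples of MOLM-13 and at most 1.74% with A9. In MONO-MAC-6 it held 0%, 0.66% and 17.4% with DMSO and 12.6% to 14.2% with A9. The full-length transcript of 3030 bases had 186, 177 and 176 TPM with DMSO and 272, 283 and 214 TPM with A9 in MOLM-13, so for this transcript the groups did not overlap. The full-length form in MONO-MAC-6 had 139, 239 and 237 TPM with DMSO and 311, 305 and 305 TPM with A9. Another coding transcript, of 1582 bases, was also uneven. It held 23.1% of IRF8 TPM in MONO-MAC-6 DMSO sample 1 and at most 0.286% in the other samples of that line. In MOLM-13 A9 sample 3 it held 6.88%. Transcripts were not tested singly.

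KLF4 (ENSG00000136826, chromosome 9, 107484852 to 107490482, minus strand) is a zinc finger factor linked to monocyte differentiation. It had 4.37, 4.22 and 3.61 TPM with DMSO and 5.08, 5.06 and 4.7 TPM with A9 in MOLM-13. The groups did not overlap, and the log2 fold change of 0.23 (SE 0.12) did not pass the test (limma adjusted p 0.732). The corresponding MONO-MAC-6 values were 3.58, 4.12 and 4.94 TPM with DMSO and 9.62, 8.64 and 8.75 TPM with A9. The DMSO levels were alike in the lines, and the MONO-MAC-6 samples with A9 lay above those of all other groups. With A9 it rose by 0.95 on the log2 scale (SE 0.14, limma adjusted p 0.0212), and it was 0.795 with scaling (limma adjusted p 0.0107) and 1.09 with a pseudocount of 0.1 (limma adjusted p 0.0249). The call was lost without DMSO sample 2 (limma adjusted p 0.0977) or A9 sample 1, 2 or 3 (0.125, 0.136 and 0.138), with the change between 0.90 and 0.97. It held without DMSO sample 1 (0.000682) or 3 (0.0363). KLF4 was low, and its main coding transcript of 2813 bases held 34.5% of KLF4 TPM in MONO-MAC-6 DMSO sample 1 and 72% to 82.7% in the other 5 samples of that line. For this transcript alone the values were 1.24, 3.41 and 4.04 TPM with DMSO and 7.43, 6.22 and 7.21 TPM with A9.

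The interaction of line and treatment was called for 1 of the 8 factors, KLF4, against 2.99% of 13408 genes. The A9 effect on KLF4 was 0.71 higher in MONO-MAC-6 on the log2 scale (SE 0.16, limma adjusted p 0.0441), beside a median of 0.20 over all genes. It was 0.50 with scaling (limma adjusted p 0.0436). The call was lost with a pseudocount of 0.1 (0.0693), with no filter (0.0632) and with the length trend removed (0.0886). It was also lost in 10 of the 12 fits that left out 1 sample, all but those without MONO-MAC-6 DMSO sample 1 or 3, with limma adjusted p-values up to 0.128.

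The 250 bases before the RefSeq start site of KLF4 are shown because KLF4 was the factor called in the interaction test. They come from RefSeq (GRCh38.p14) at chr9:107489770-107490019, minus strand, inside the span of the GENCODE gene but in no annotated exon. Capitals mark the match to GAGGAA, a core that PU.1 binds.
KLF4: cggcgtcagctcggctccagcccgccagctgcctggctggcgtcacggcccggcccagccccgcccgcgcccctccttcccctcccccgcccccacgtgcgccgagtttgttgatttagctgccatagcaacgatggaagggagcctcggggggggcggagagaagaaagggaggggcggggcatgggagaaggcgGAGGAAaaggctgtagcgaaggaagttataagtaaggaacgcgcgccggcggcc
The promoter table held 7 of the 9 factors, and 8 motifs were searched on both strands in the 250 bases upstream of their most upstream start. These were TTGCNNAA for C/EBP, GAGGAA for PU.1, GAAANNGAA for IRF, AACNG for MYB, CACCC for KLF factors, TTCNNNGAA for STAT, AAAGGTCA for the NR4A receptors, and the kB consensus of NF-kB. The PU.1 core was in the windows of KLF4, from base -54 to -49, and CEBPE, and in 23.6% of the windows of that length of 35114 starts. The IRF and kB motifs were found for CEBPE only, in 6.88% and 5.21% of all windows, and the C/EBP and NR4A motifs in 0 of the 7, where 9.05% and 1.05% of all windows held them. A match is a string of letters and not a measured binding site.

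GFI1 (ENSG00000162676, chromosome 1, 92474762 to 92486876, minus strand) had 66.6, 51.7 and 39.8 TPM with DMSO and 52.2, 62.3 and 25.4 TPM with A9 in MOLM-13. MONO-MAC-6 samples had 27.9, 68.3 and 84.4 TPM with DMSO and 74.5, 74.8 and 73 TPM with A9. The groups overlapped in both lines, with MONO-MAC-6 DMSO sample 1 and MOLM-13 A9 sample 3 far below the rest of their lines. The log2 fold changes were -0.24 (SE 0.35, limma adjusted p 0.892) and 0.44 (SE 0.39, limma adjusted p 0.502), with 95% intervals from -1.08 to 0.61 and from -0.49 to 1.36. Without MOLM-13 A9 sample 3 the first was 0.14, and without MONO-MAC-6 DMSO sample 1 the second was -0.034, so the direction of GFI1 rested on those samples.

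MYB (ENSG00000118513, chromosome 6, 135181315 to 135219173, plus strand) had 193, 163 and 139 TPM with DMSO and 169, 183 and 134 TPM with A9 in MOLM-13. MYB levels in MONO-MAC-6 were 174, 271 and 280 TPM with DMSO and 271, 254 and 257 TPM with A9. Again the groups overlapped and the same 2 samples were the lowest of their lines. The log2 fold change was -0.025 in MOLM-13 (limma adjusted p 0.975) and 0.14 in the other line (limma adjusted p 0.641), and both changed sign with scaling. The most abundant MYB transcript, coding and of 3302 bases, held 59.9% ± 3.41 of MYB TPM with DMSO and 59.9% ± 2.58 with A9 in MOLM-13, and 52% ± 2.2 and 49.5% ± 0.56 in MONO-MAC-6 (SD, n = 3). A longer coding transcript of 3672 bases, ENST00000341911, held 3.45% and 3.5% in MOLM-13 and 7.51% and 11.3% in MONO-MAC-6.

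GFI1 and MYB varied together. After each line's mean was subtracted, their log2 values over the 12 samples had a Pearson r of 0.96. Each was closer to other genes, GFI1 at r 0.995 to 0.996 with its nearest 3 and MYB at 0.993 to 0.995. The likeness was thus not particular to this pair. These r values are a description, over samples that include the 2 that stand apart. The 250 bases upstream of both are shown for this pair, from RefSeq (GRCh38.p14), at chr1:92486926-92487175, minus strand, and chr6:135181058-135181307, plus strand. Capitals mark matches to CACCC and AACNG on either strand, which 54.7% and 70.6% of all windows hold.
GFI1: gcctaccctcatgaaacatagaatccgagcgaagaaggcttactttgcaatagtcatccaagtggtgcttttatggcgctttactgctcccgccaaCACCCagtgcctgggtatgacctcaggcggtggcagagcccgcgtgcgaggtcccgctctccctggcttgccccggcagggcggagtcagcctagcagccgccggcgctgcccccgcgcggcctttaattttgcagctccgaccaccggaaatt
MYB: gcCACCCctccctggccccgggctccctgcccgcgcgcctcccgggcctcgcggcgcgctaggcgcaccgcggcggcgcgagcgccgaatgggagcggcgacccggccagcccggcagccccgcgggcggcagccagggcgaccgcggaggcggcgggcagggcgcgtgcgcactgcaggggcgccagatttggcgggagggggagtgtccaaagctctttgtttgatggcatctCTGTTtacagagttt
The windows had a GC content of 61.2% and 75.6%, beside a median of 58% over all windows. Neither held a match to the other 6 motifs.

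**Figure D3:**
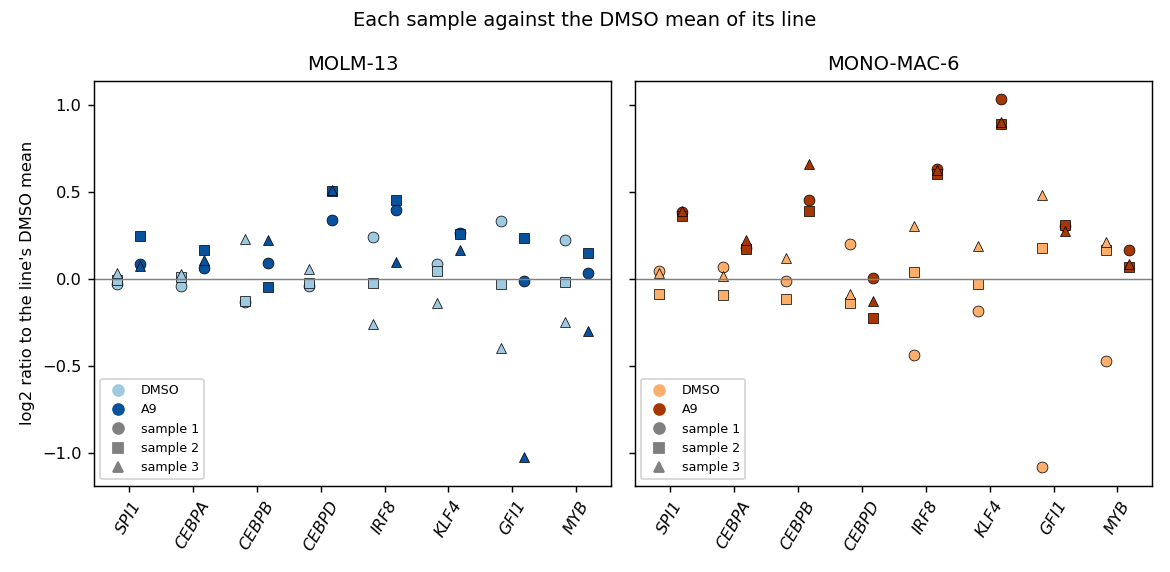
Log2 ratio of each sample's TPM, with 1 added, to the mean of the DMSO samples of its line, for the 8 tested factors in MOLM-13 (left) and MONO-MAC-6 (right). Symbols give the sample number, pale colours DMSO and dark colours A9. MONO-MAC-6 DMSO sample 1 is low for IRF8, GFI1 and MYB, and MOLM-13 A9 sample 3 is low for GFI1 and MYB, while SPI1 and CEBPA stay within narrow ranges.

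For GFI1, IRF8 and MYB the spread lay mostly between samples. For CEBPE in both lines, CEBPB in MONO-MAC-6 and KLF4 in MOLM-13, libraries of the same sample varied about as much. For GFI1 the SD of log2(TPM + 1) had a median of 0.058 within samples and was 0.54 between samples in MOLM-13, and 0.036 and 0.59 in MONO-MAC-6. For CEBPA these were 0.0085 and 0.045 in MOLM-13 and 0.016 and 0.063 in MONO-MAC-6. CEBPB had 0.083 within and 0.18 between samples in MOLM-13, and 0.13 both within and between samples in MONO-MAC-6. KLF4 had 0.088 within and 0.091 between samples in MOLM-13, and 0.049 and 0.14 in MONO-MAC-6. CEBPE had 0.21 and 0.16 in MOLM-13 and 0.17 and 0.18 in MONO-MAC-6.

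By the same measure of likeness, SPI1 followed CEBPA (r 0.95) and KLF4 (r 0.90), IRF8 followed KLF4 (r 0.89), and CEBPD followed none of the others above 0.39. Among the 8905 genes tested in both lines whose mean reached 5 TPM, those most like SPI1 were PDLIM7, UBXN11 and ANKRD30BL (r 0.966 to 0.975). The nearest to KLF4 were SEZ6L2, LRP5L and CHI3L1 (r 0.975 to 0.977), to IRF8 PTGER4, NFAM1 and THTPA (0.980 to 0.985), and to CEBPA CORO1B, OGFR and SPI1 (0.951 to 0.970). CEBPB was nearest to METTL23, SMPD1 and AC018638.1 (0.891 to 0.916) and CEBPD to YIPF2, CCDC106 and IL3RA (0.945 to 0.953). GFI1 was nearest to TUBGCP3, SRPRA and AP3B1 (0.995 to 0.996) and MYB to GMFB and IGF2BP2 (0.995 and 0.993). These r values describe 12 samples that share treatments, and carry no test.

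Ratios between factors within a sample do not depend on the scaling of the sample. CEBPA over SPI1 was 1.69 ± 0.0171 with DMSO and 1.67 ± 0.0655 with A9 in MOLM-13 (SD, n = 3). In MONO-MAC-6 it was 1.28 ± 0.0175 with DMSO and 1.12 ± 0.0142 with A9 (SD, n = 3), and the groups did not overlap. MYB over KLF4 was 40.4 ± 3.2 and 32.7 ± 3.88 in MOLM-13 and 57 ± 8.59 and 29 ± 0.677 in MONO-MAC-6 (SD, n = 3). In MONO-MAC-6 the DMSO samples had 48.6, 65.8 and 56.6 against 28.2, 29.4 and 29.4 with A9. IRF8 over SPI1 was 1.41 ± 0.277 and 1.6 ± 0.159 in MOLM-13 and 0.965 ± 0.247 and 1.14 ± 0.00546 in MONO-MAC-6 (SD, n = 3), and overlapped in both lines. The ratios were not tested.

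With DMSO, 4 of the 8 tested factors were called between the lines, all higher in MONO-MAC-6, against 48.8% of 12920 genes called in either direction. The DMSO samples did not overlap for the same 4 (CEBPD, SPI1, CEBPA and CEBPB), against 59.0% of genes. These shares were near those of all genes. CEBPD was 1.56 higher on the log2 scale (SE 0.12, limma adjusted p 0.000104), 68 ± 9.04 against 22.3 ± 0.843 TPM (SD, n = 3). SPI1 was 0.70 higher (SE 0.074, limma adjusted p 0.000433), 262 ± 13.4 against 161 ± 3.75 TPM (SD, n = 3). Both calls held in every alternative run, with limma adjusted p-values up to 0.00468 for CEBPD and 0.0368 for SPI1. CEBPB (0.55, limma adjusted p 0.027) and CEBPA (0.29, limma adjusted p 0.0198) were lost with scaling (0.12 and 0.515), with the length trend removed (0.0866 and 0.345) and in 4 of 6 fits without 1 sample. For CEBPA those were without MOLM-13 DMSO sample 1, 2 or 3 or MONO-MAC-6 DMSO sample 3 (0.0589 to 0.0821). For CEBPB they were without MOLM-13 DMSO sample 1 or 2 or MONO-MAC-6 DMSO sample 2 or 3 (0.0542 to 0.114). MYB had 242 ± 58.6 against 165 ± 27 TPM (SD, n = 3) and missed the threshold (0.53, limma adjusted p 0.0888). It passed without MONO-MAC-6 DMSO sample 1 (0.75, limma adjusted p 0.00532) and with scaling (0.39, limma adjusted p 0.0373). IRF8, KLF4 and GFI1 differed by 0.14, 0.037 and 0.079, with limma adjusted p-values of 0.645 to 0.896, and each changed sign with scaling.

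Genes that these factors are known to act with or on were followed as lists. The lists were written with earlier results of these data known, so their counts beside those of all genes only describe them. Of 51 other myeloid and haematopoietic factors, 42 were tested in MOLM-13 and 0 were called with A9 by limma, with 8 at an unadjusted p under 0.05, beside 14 called and 915 unadjusted of 11596 genes. Of 41 tested in MONO-MAC-6, 1 rose and 1 fell, beside 3.36% of all genes called. KLF10, a TGF-beta-induced relative of KLF4, had 2.4, 4 and 3.73 TPM with DMSO and 10.3, 11.3 and 9.92 TPM with A9 (log2 fold change 1.41, limma adjusted p 0.0129). SPIB, the closest relative of SPI1, had 10.2, 10.3 and 9.74 TPM with DMSO and 4.61, 5.75 and 4.04 TPM with A9 (-0.94, limma adjusted p 0.0242). The SPIB call held in 1 of 6 fits without 1 sample and the KLF10 call in 3 of 6, with limma adjusted p-values up to 0.149 and 0.0969. SPIB had 5.13, 5.07 and 5.98 TPM with DMSO and 2.06, 2.87 and 2.4 TPM with A9 in MOLM-13 (-0.90, limma adjusted p 0.0876), and its change differed by -0.045 between the lines (limma adjusted p 0.882). SPI1 and SPIB had fitted changes of opposite sign in both lines. Of 12 partners and regulators, such as the C/EBP-degrading pseudokinases TRIB1 and TRIB2, 0 of 9 were called in MOLM-13 and 0 of 11 in MONO-MAC-6 by limma, with 0 and 2 at an unadjusted p under 0.05. Over all genes, 2633 of 12869 had such a p in MONO-MAC-6.

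Some monocyte and macrophage genes rose in both lines, counted over a list written with earlier results of these data known. Of 29 in the list, 3 of 21 tested rose in MOLM-13 (S100A9, S100A8 and LYZ), beside 0.121% of all genes called, and 8 of 25 rose in MONO-MAC-6, beside 3.36%. The list median there was 0.67 on the log2 scale, beside 0.16 over all genes, and in MOLM-13 it was 0.10 beside -0.046. CD14, a lipopolysaccharide co-receptor, had 3.71, 2.66 and 3.05 TPM with DMSO and 12.4, 13.1 and 13.5 TPM with A9 in MONO-MAC-6 (1.77, limma adjusted p 0.00256), and it was below 0.5 TPM in every MOLM-13 sample. CD68, a lysosomal glycoprotein, rose there by 1.72, and NCF1, a subunit of the phagocyte oxidase, by 1.41, although NCF1 has near-identical pseudogene copies that can share its reads. In MOLM-13, NCF1 had 17.6, 16.9 and 19 TPM with DMSO and 11.3, 11.7 and 12 TPM with A9 (-0.57, limma adjusted p 0.102), and its A9 effect differed between the lines by 1.98 (limma adjusted p 2.29e-05). LYZ, the lysozyme gene, rose by 1.17 in MONO-MAC-6 and by 1.29 in MOLM-13. S100A8, S100A9 and MNDA were also among the 8. CD68 was lost without A9 sample 2 or 3 of MONO-MAC-6 at limma adjusted p-values up to 0.0504, and LYZ in MOLM-13 in 1 of 6 such fits, at 0.0661.

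Of 6 primary granule genes, CTSG, a neutrophil serine protease, fell in MONO-MAC-6 by 1.36 on the log2 scale (692, 557 and 523 TPM with DMSO and 253, 219 and 215 TPM with A9, limma adjusted p 0.00564). The call was lost without A9 sample 2 or 3 (limma adjusted p up to 0.0524). PRTN3 and ELANE, serine proteases of the same granules, had changes of the other sign with groups that did not overlap, none past the test. PRTN3 had 3.55, 13 and 57.3 TPM with DMSO and 323, 321 and 388 TPM with A9 in MOLM-13 (4.47, limma adjusted p 0.156), and its change was 0.42 in MONO-MAC-6 (limma adjusted p 0.143). ELANE changes were 0.77 in MOLM-13 (limma adjusted p 0.0876) and 0.28 in MONO-MAC-6 (limma adjusted p 0.228). The other 4 tested in MONO-MAC-6 did not pass, and 0 of 6 passed limma's test in MOLM-13, with 3 at an unadjusted p under 0.05. Only 4 of 14 secondary granule genes, targets of CEBPE among other factors, were expressed enough to be tested. HP, haptoglobin, and CHI3L1, a chitinase-like protein, rose in MONO-MAC-6 by 4.39 and 1.63 (limma adjusted p 0.000404 and 0.0028), and 0 of 4 were called by limma in MOLM-13, with 3 at an unadjusted p under 0.05. Both are also made outside granulocytes. SLPI, a protease inhibitor, had 291, 198 and 206 TPM with DMSO and 137, 128 and 138 TPM with A9 in MONO-MAC-6 (-0.76, limma adjusted p 0.0592). The A9 effect on SLPI differed between the lines by -1.5 (limma adjusted p 0.0289). That call was lost without MOLM-13 A9 sample 1 or 3 or MONO-MAC-6 A9 sample 1, 2 or 3 (limma adjusted p up to 0.0885). Of 12 progenitor genes, 8 were tested in each line and 0 were called by limma in either, with 2 at an unadjusted p under 0.05 in each, beside 915 of 11596 genes in MOLM-13 and 2633 of 12869 in MONO-MAC-6.

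**Figure D4:**
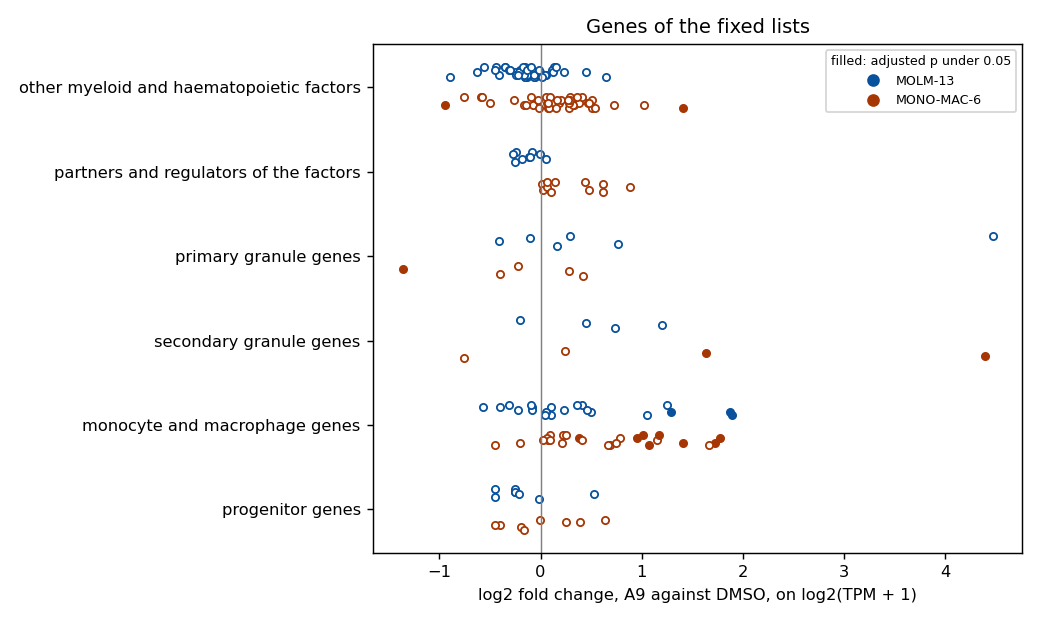
Log2 fold change with A9 on log2(TPM + 1) of every tested gene of the lists, in MOLM-13 (blue) and MONO-MAC-6 (brown). Filled points have a limma adjusted p under 0.05: 8 monocyte and macrophage genes rose in MONO-MAC-6 and 3 in MOLM-13, and the partners and progenitor genes hold 0 filled points.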

How the data were processed

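Bulk RNA-seq of 36 libraries of MOLM-13 and MONO-MAC-6 cells was used. The authors deposited TPM per Ensembl transcript, and the submitters' processing notes name kallisto, limma and GRCh38, with no versions. Each library's TPM sum to 1000000, so they hold no depth and any shift in total RNA is lost. Of 207175 transcripts, 162526 (78.4%, 89.8% to 91.4% of TPM) were matched to GENCODE 29 and summed by gene. The 9 libraries of a group were averaged by the first number of their label into 3 samples. Genes whose mean reached 1 TPM in any group entered the test on log2(TPM + 1) with limma 3.58.1 (R 4.3.3, trend and robust, two-sided, Benjamini-Hochberg over all genes, threshold 0.05), after tests on simulated data. Treatment was compared within each line, the interaction over 12 samples, and the DMSO groups between lines. Members and lists were chosen with earlier results of these data known. Named genes are the 9 factors, up to 4 called genes of each list by size of change, and the 3 genes most like each factor by Pearson r. Some genes beyond that rule are named to show what a count holds, and some items that the rule names are not reported here. Alternatives were another pseudocount, no filter, a stricter threshold, other replicate units, a replicate block, median-ratio scaling, each sample left out and, chosen after seeing the data, removal of a transcript length trend. Promoters came from RefSeq (GRCh38.p14). Tables and figures used Python 3.11.15, pandas 2.3.3 and matplotlib 3.10.9.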

Additional observations from a re-analysis of the deposited data

Results flagged for a closer look

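The A9 effect on KLF4 differed between the lines in the test of the interaction. It was 0.714 higher on the log2 scale in MONO-MAC-6 than in MOLM-13 (SE 0.16, limma adjusted p 0.0441), beside a median of 0.196 over all genes. The call held in 2 of 12 fits that left out 1 sample. It was lost with a pseudocount of 0.1, with no filter, with the length trend removed and with a replicate block. KLF4 had 4.06 ± 0.404 TPM with DMSO and 4.94 ± 0.214 TPM with A9 in MOLM-13, and 4.21 ± 0.682 and 9 ± 0.539 TPM in MONO-MAC-6 (SD, n = 3). MONO-MAC-6 received 0.25 µM of A9 and MOLM-13 0.125 µM. An effect of the line and one of the dose cannot be told apart.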

How the results depend on the processing

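Counts of calls depended on the choice of replicate. In MOLM-13, 0 factors and 14 genes were called with A9. The genes were 4 with no filter, 4 at a threshold of 0.01, 48 with scaling and 2 to 8 without 1 sample. In MONO-MAC-6, 2 factors and 433 genes became 1 and 254 with no filter, 0 and 109 at 0.01, 1 factor with scaling, and 0 to 5 factors and 59 to 3204 genes without 1 sample. For the interaction, 1 factor and 401 genes became 0 factors with a pseudocount of 0.1 or no filter, 0 and 146 at 0.01, and 0 to 1 factor and 197 to 548 genes without 1 sample. Between the DMSO groups, 4 factors became 2 at 0.01 and 2 to 5 without 1 sample.

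Removing the length trend gave 1 factor and 177 genes in MOLM-13, 1195 genes in MONO-MAC-6, and 0 factors and 743 genes for the interaction. Taking each library as a sample, which treats libraries of 1 sample as independent, gave 5 factors and 1742 genes in MOLM-13, 5 factors with 5585 genes in MONO-MAC-6, and 4 and 5621 for the interaction. Averaging by the second number mixes libraries of all 3 first-number samples into each unit, so the spread between those samples is averaged away. It gave 6 and 5440, 8 and 8703, and 8 and 8505, and 7 and 11052 between the DMSO groups. Of the called genes, the share with a positive change was 74.6% in MONO-MAC-6, 61.5% with scaling and 53.2% without the length trend. For the interaction it was 64.3%, 54.6% and 45.5%, and between the DMSO groups 62.2%, 52.2% and 50.3%.

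Same-numbered samples did not deviate together throughout (correlations 0.361, -0.077 and 0.676 within MOLM-13, -0.027, 0.088 and -0.091 within MONO-MAC-6, and -0.647, 0.068 and -0.595 between the DMSO groups), so the numbers were not taken as pairs. With a replicate block, 87 genes were called in MOLM-13, 0 factors and 94 genes in MONO-MAC-6, and 0 and 207 for the interaction. Between the DMSO groups 2 factors (CEBPD and SPI1, without CEBPA and CEBPB) and 4106 genes were called. In MONO-MAC-6, SPI1 and KLF4 then had limma adjusted p-values of 0.177 and 0.122, and KLF4 had 0.133 for the interaction.

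Directions turned for some factors, none of them past the test. With scaling and with the length trend removed, MYB was 0.0251 and 0.0658 with A9 within MOLM-13, -0.0378 and -0.078 within MONO-MAC-6, and -0.0648 and -0.151 for the interaction. CEBPA was -0.148 and -0.189 for the interaction. Between the DMSO groups KLF4 was -0.0742 and -0.0389, GFI1 -0.0565 and -0.00565, and IRF8 -0.00157 with scaling. Without 1 sample, MYB ran from -0.141 to 0.106 in MOLM-13, from -0.0786 to 0.262 in MONO-MAC-6 and from -0.0538 to 0.286 for the interaction. GFI1 ran from -0.487 to 0.142, and from -0.0344 to 0.747. Between the DMSO groups IRF8 ran from -0.0319 to 0.336, KLF4 from -0.0613 to 0.126 and GFI1 from -0.232 to 0.55. The cause of these changes was not tested. Depth limits could not be given, since TPM hold no counts.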
